A study of Mus musculus with 2 samples.

Results

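Genes for the subunits of the respiratory chain and of the ATP synthase were followed in single lung cells sorted for the mCherry of old p16-FDR mice. Members were all rows of the expression table whose symbols belong to the subunit families Ndufa, Ndufb, Ndufc, Ndufs and Ndufv, Sdha to Sdhd, Uqcr, Cox4 to Cox8 and Atp5, plus the mt-Nd, mt-Co, mt-Cytb and mt-Atp rows. This rule read symbols only and gave 95 of 15526 genes. The nuclear genome encodes 82 of them, with 37 in complex I, 4 in complex II, 8 in complex III, 17 in complex IV and 16 in the ATP synthase, grouped by symbol. The mitochondrial genome encodes the other 13, with 7 in complex I, 1 in complex III, 3 in complex IV and 2 in the ATP synthase. In all, 92 members were detected in at least 1% of cells, and the tissue-restricted isoform genes Cox6a2, Cox7b2 and Cox8b were not.

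The cells came from C57BL/6 mice of the p16-FDR line at an age of 20 to 22 months. This line carries FLP recombinase and DTR, the receptor for diphtheria toxin, in fusion with the fluorescent protein mCherry. The labels give 1 group of 2 samples, mCherry-positive cells sorted from lung by flow cytometry, so every cell compared here had passed the same gate. Cells without mCherry were not analysed here. Transcripts were counted as unique molecular identifiers (UMIs) at their 3' ends, and the table held 1344 cells with a median of 5828 UMIs (range 2517 to 49467). The cell names carry the tags Lung1 and Lung2, called library 1 and library 2 here. Library 1 gave 1145 cells and library 2 gave 199, with 0 cell barcodes in common. The tags match neither sample title, and whether they mark animals, lungs or runs cannot be told from the names. All cells therefore counted as 1 sample without a test between samples, and values of each library are given as within-library values. A rate is the number of UMIs of a gene per 10000 UMIs of the cells concerned, and intervals in parentheses are 95% intervals for counting error only.

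The respiratory chain passes electrons from NADH (complex I) and succinate (complex II) through complex III to oxygen at complex IV, and the ATP synthase uses the proton gradient that complexes I, III and IV build. Complex II is made from nuclear genes alone, whereas every other complex joins nuclear subunits with subunits that are transcribed and translated inside the mitochondrion. Some nuclear subunits have tissue-restricted copies, such as Cox4i2, Cox6b2 and Ndufa4l2, and lung is known as a main site of Cox4i2.

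Cells were clustered without the members and without the other mitochondrial and glycolytic gene lists, and clusters were named from lineage markers. The class with most cells, 603, was endothelial-like (449 in library 1 and 154 in library 2). All 11 endothelial markers had UMIs in them at a summed rate of 262 per 10000, against 0.113 to 10.4 in the other classes. The other classes were T-cell-like (156 cells), fibroblast-like (121), interstitial-macrophage-like (108), B-cell-like (82), plasma-cell-like (24) and alveolar-macrophage-like (20) cells. A further 4 clusters had no single name and are called by a leading gene: Acta2-led (92 cells), Mmp12-led (72), Prg4-led (49) and Scgb1a1-led (17). Cells with markers of several unrelated lineages numbered 30 (2.23%), and no doublets were removed. In plasma-cell-like cells the 5 most abundant genes took 65.9% of all UMIs and in the Scgb1a1-led cluster 46.9%, against 7.13 to 12.6% elsewhere, so rates of all other genes there are low by construction. Rates were therefore also computed on a total without the 20 genes that took the largest share of UMIs in any class, such as Igkc and Scgb1a1, and that total lowers every endothelial log2 ratio by 0.26.

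The results below turn on subunit genes that differed in opposite directions in endothelial-like cells, and the sequences before the starts of 5 of them are shown. RefSeq windows (GRCm38.p6) of 300 bases, 250 before and 50 after the start, were matched for 67 of the 82 nuclear members (72 windows). The NRF1 motif was searched as GCATGCGC, the GABPA motif as CCGGAAG and the YY1 motif as AAGATGGC, each on both strands, and all 3 factors are known activators of nuclear genes for mitochondria. The NRF1 letters were in 13.9% of member windows and 2.71% of all 32851 windows of that length, the GABPA letters in 22.2% and 8.86%, and the YY1 letters in 13.9% and 2.75%. A match is a description of these windows, not of binding. The 250 bases before the start are printed 5′ to 3′ on the gene's strand, with matches in capitals, for Ndufa9 (chr6:126849145-126849394, minus strand) and Cox6a1 (chr5:115348959-115349208, minus strand), which were higher in endothelial-like cells, and for Atp5e (chr2:174464102-174464351, minus strand), Uqcrh (chr4:116075071-116075320, minus strand) and Cox6b2 (chr7:4753095-4753344, minus strand), which were lower.
Ndufa9: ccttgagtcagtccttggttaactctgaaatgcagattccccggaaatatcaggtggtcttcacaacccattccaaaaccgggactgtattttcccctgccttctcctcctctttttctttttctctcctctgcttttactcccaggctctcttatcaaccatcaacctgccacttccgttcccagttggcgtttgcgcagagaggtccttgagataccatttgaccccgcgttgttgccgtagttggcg
Cox6a1: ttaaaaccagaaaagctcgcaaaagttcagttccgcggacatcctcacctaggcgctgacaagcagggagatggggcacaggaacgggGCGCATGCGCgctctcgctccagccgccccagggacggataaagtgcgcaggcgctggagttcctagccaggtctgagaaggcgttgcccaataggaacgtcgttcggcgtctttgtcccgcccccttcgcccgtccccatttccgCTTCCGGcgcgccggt
Atp5e: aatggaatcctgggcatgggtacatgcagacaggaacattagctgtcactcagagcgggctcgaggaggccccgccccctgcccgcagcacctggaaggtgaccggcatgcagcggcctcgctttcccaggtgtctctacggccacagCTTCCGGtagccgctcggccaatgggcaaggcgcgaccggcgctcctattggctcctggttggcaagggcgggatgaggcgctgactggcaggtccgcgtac
Uqcrh: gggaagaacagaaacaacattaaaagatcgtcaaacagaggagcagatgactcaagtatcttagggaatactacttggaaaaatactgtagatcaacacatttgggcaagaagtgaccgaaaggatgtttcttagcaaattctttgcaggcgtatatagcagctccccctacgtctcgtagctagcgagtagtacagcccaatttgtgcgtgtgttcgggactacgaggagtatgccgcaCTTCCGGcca
Cox6b2: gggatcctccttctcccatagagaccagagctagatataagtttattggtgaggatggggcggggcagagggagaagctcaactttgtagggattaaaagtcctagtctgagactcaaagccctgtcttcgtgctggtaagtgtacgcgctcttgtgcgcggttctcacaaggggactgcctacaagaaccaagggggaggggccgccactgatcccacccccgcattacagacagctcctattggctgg
The capitals mark NRF1 letters on both strands (overlapping) and then GABPA letters in Cox6a1, and GABPA letters in Atp5e and Uqcrh. Ndufa9 has its one match, YY1 letters, after the start, and the Cox6b2 window holds none of the 3 motifs. Sdhb is not printed, and its NRF1 letters, 54 bases before the RefSeq start, lie inside the gene as GENCODE M21 annotates it. The GABPA letters of Cox6a1, 16 bases before the RefSeq start, likewise lie inside the gene in that annotation. Among the printed genes, matches stood before the RefSeq start of Cox6a1, which was higher, and of Atp5e and Uqcrh, which were lower.

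Nuclear subunit mRNAs together made up 172 per 10000 UMIs in endothelial-like cells (170 to 173) and 166 in all other cells (165 to 167), but on the total without the 20 genes the order was the other way round, with 183 and 212. The sum was highest in alveolar-macrophage-like cells at 218 (212 to 225) and lowest in plasma-cell-like cells at 103 (101 to 106). On the total without the 20 genes plasma-cell-like cells moved from the lowest place to the highest, at 319, and interstitial-macrophage-like cells were lowest at 176. The place of plasma-cell-like cells therefore depends on the total used, and the 20 genes took 67.7% of their UMIs. The 2 macrophage-like classes kept their order on both totals (218 against 148, and 255 against 176).

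The 13 mitochondrial genes together made up 267 per 10000 UMIs in endothelial-like cells (265 to 268) and 302 in all other cells (300 to 303), and the direction was the same without the 20 genes (285 and 385). B-cell-like cells had the highest rate at 411 (406 to 416) and plasma-cell-like cells, of the same lineage, the lowest at 160 (157 to 163). On the total without the 20 genes the Scgb1a1-led cluster was highest at 669, plasma-cell-like cells stood at 495 above B-cell-like cells at 459, and endothelial-like cells were the lowest. Nuclear UMIs per mitochondrial UMI, a ratio that does not depend on the total, stood at 0.644 in endothelial-like cells (0.638 to 0.651), 0.749 in alveolar-macrophage-like cells and 0.437 in B-cell-like cells, and the Scgb1a1-led cluster was lowest at 0.419. Endothelial-like cells had 0.668 in library 1 and 0.595 in library 2. Interstitial-macrophage-like cells stood at 0.469 (0.498 in library 1), so the 2 macrophage-like classes were far apart on this ratio too.

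The deposited cells bear on these sums. The largest share of a cell's UMIs in mitochondrial genes was 5.003%, and 95 cells were over 4.5%. These included 32.9% of B-cell-like cells and 2.49% of endothelial-like cells, so the classes lie at unequal distances from this upper end, and its part in the mitochondrial differences was not tested. Without the 95 cells the endothelial log2 ratio of the mitochondrial sum went from -0.18 to -0.11.

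**Figure D1:**
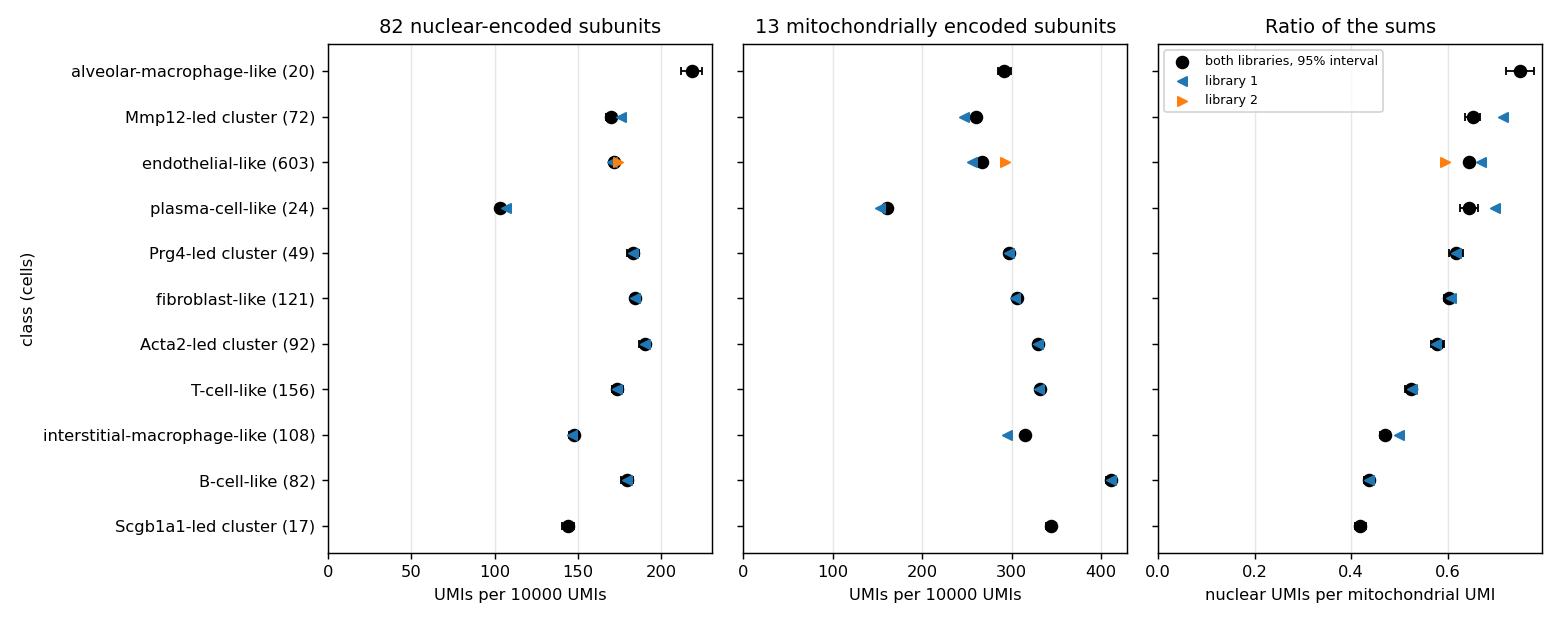
Summed rates of the 82 nuclear members, of the 13 mitochondrial members and their ratio, in UMIs per 10000 UMIs and nuclear UMIs per mitochondrial UMI, for the 11 classes. Black points are both libraries with 95% counting intervals, and blue and orange triangles are libraries 1 and 2 where they hold at least 20 cells of a class. Alveolar-macrophage-like cells lie at 218 and 292 per 10000, B-cell-like cells at 180 and 411, and plasma-cell-like cells at 103 and 160.

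Member by member, endothelial-like cells differed from all other cells in both directions. A gene was counted as higher or lower when its rates, with 0.1 per 10000 added to both, were 1.5-fold or more apart. Of 92 members 11 were higher, against 28.3% of the 12702 genes detected in at least 1% of cells, and 10 were lower, against 18.1% of all genes. The share of members that were higher was thus well under that of all genes, and the median log2 ratio of members was 0.10 beside 0.24 for all genes. All 11 higher members were nuclear, and 2 of the 10 lower ones were mitochondrial. On the total without the 20 genes 3 members were higher, against 20.8% of all genes, and 18 lower, against 21.8%.

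Counts by complex stand beside 28.3% of all genes higher, 18.1% lower and a median log2 ratio of 0.24. Only complex II, with 4 members, had a larger share of higher members than all genes had. Complex I had 6 of 37 nuclear members higher and 2 lower (median log2 ratio 0.34), complex II 2 of 4 higher (0.68), complex III 1 of 8 higher and 1 lower (0.24), complex IV 2 of 14 higher and 3 lower (-0.19), and the ATP synthase 0 of 16 higher and 2 lower (-0.01). The complex II sum was 4.83 per 10000 in endothelial-like cells (4.60 to 5.06) and 2.67 in other cells (2.55 to 2.80). The next class, alveolar-macrophage-like cells, was at 4.17 (3.36 to 5.11), an interval that covers the endothelial value. Complex I stood at 64.7 against 54.5, complex III at 18.8 against 18.1, complex IV at 41.0 against 43.2 and the ATP synthase at 42.4 against 47.6. These groups follow the symbols, and with Ndufa4, now placed with complex IV, counted there, complex IV was level at 47.2 against 47.3 with 3 of 15 members higher and 3 lower, and complex I was at 58.5 against 50.5. Its relative Ndufa4l2 (log2 ratio -0.78) was not moved and is among the 2 lower members of complex I in both groupings. With every log2 ratio lowered by 0.26 the complex II sum stays higher in endothelial-like cells than in all other cells together, and those of complexes I and III do not. Complex sums of single classes were not compared on that total.

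In complex I, Ndufs1, which carries iron-sulfur clusters of the NADH-oxidising arm, had a rate of 0.545 in endothelial-like cells (0.509 in library 1 and 0.629 in library 2) and 0.0846 to 0.447 in the other 10 classes. Ndufa9, an accessory subunit near the quinone site, had 0.817 (0.725 and 1.03 in the libraries) against 0.198 to 0.605. Both were above every other class on either total, although intervals overlap with that of B-cell-like cells for Ndufs1 (0.294 to 0.650) and of interstitial-macrophage-like cells for Ndufa9 (0.443 to 0.807). Ndufs5 and Ndufa8, small accessory subunits, had 2.77 and 1.53 in endothelial-like cells and 1.65 and 0.913 in all other cells. The core subunit Ndufv1, which holds the flavin that takes electrons from NADH, had 1.01 against 0.646. Ndufv2, named after its values were seen, was the other complex I member above all classes on both totals, with 1.69 against 1.05 in all other cells. On the opposite strand Ndufs1 overlaps Eef1b2, Ndufa9 overlaps 1700018A23Rik, Uqcrc2 of complex III overlaps Pdzd9 and Ndufa4l2 overlaps Shmt2, and whether counting used strand is not given in the sources used here. Other members overlap annotated genes too, such as Sdha and Uqcrh on the opposite strand and Cox4i1 with Gm20388 on the same strand.

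Ndufa1, a short membrane subunit encoded on the X chromosome, went the other way. Its rate was 1.63 in endothelial-like cells (1.74 in library 1 and 1.39 in library 2), 1.67 to 2.77 in 8 other classes, 5.22 in the Prg4-led cluster and 5.77 in plasma-cell-like cells (5.22 to 6.36). Endothelial-like cells were lowest on both totals, although the interval of interstitial-macrophage-like cells (1.39 to 1.99) covers the endothelial value. Plasma-cell-like cells had 63 members lower (69.6% of all genes) and only 4 higher (1.92%), and Ndufa1 was among the 4 with Cox4i2, Uqcrq and Atp5g1.

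Complex II, succinate dehydrogenase, showed the widest gap. Sdhb, its iron-sulfur subunit, had a rate of 1.98 in endothelial-like cells (1.84 to 2.13), with 1.71 in library 1 and 2.63 in library 2. The other classes lay between 0.471 in the Scgb1a1-led cluster and 1.17 in fibroblast-like cells (0.966 to 1.41), so no interval reached the endothelial one. The ratio to all other cells was 2.18, a log2 ratio of 1.12 (0.96 to 1.29). On the total without the 20 genes Sdhb was above 9 of 10 classes, at 2.12 against 2.44 in plasma-cell-like cells. Thinning every cell to 2500 UMIs gave an expected share with an Sdhb UMI of 36.5% for endothelial-like cells and 11.8 to 25.4% for the other classes.

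Sdha, the flavoprotein that oxidises succinate, had 1.44 in endothelial-like cells (1.37 and 1.60 in the libraries), and the other classes ranged from 0.226 in plasma-cell-like to 1.27 in alveolar-macrophage-like cells (0.843 to 1.83). The interval of the latter covers the endothelial value. The membrane anchors Sdhc and Sdhd were at 0.593 and 0.817 in endothelial-like cells, below the 1.18 and 0.951 of alveolar-macrophage-like cells. For Sdhc the intervals do not meet, whereas that of Sdhd in alveolar-macrophage-like cells (0.589 to 1.45) covers the endothelial value.

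In complex III, the core subunit Uqcrc2 had 1.45 in endothelial-like cells (1.36 and 1.68 in the libraries) and 0.324 to 1.08 in the other classes, with endothelial-like cells on top on both totals. Its partner Uqcrc1 had 1.31 against 0.853 in all other cells and the Rieske iron-sulfur protein Uqcrfs1 1.09 against 0.939. With the shift of 0.26 Uqcrc1 (log2 ratio 0.57) stays higher and Uqcrfs1 (0.20) does not. Uqcrh, the hinge protein next to cytochrome c1, was lower, at 2.60 in endothelial-like cells (2.68 and 2.39) against 3.07 to 6.51 in 9 classes and 2.07 in plasma-cell-like cells. The ratio of Uqcrh to all other cells was 0.568, a log2 ratio of -0.81 (-0.92 to -0.71).

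In complex IV, Cox6a1, the widely expressed form of subunit VIa, had 2.80 in endothelial-like cells (2.84 and 2.70) and 1.59 in all other cells, with only alveolar-macrophage-like cells higher, at 3.53 (2.79 to 4.41, an interval that covers the endothelial value). Cox7a2l had 1.30 against 2.10. Cox5a, a core-binding subunit, set alveolar-macrophage-like cells apart, with a rate of 8.06 (6.92 to 9.34) against 1.2 to 3.68 in the other 10 classes and 2.23 in endothelial-like cells. The rate in alveolar-macrophage-like cells was 7.64 without the cell that held most Cox5a UMIs, and 19 of the 20 cells had at least 1. In these 20 cells 17 members were higher (16.5% of all genes) and 8 lower (31.6%), among the higher ones Cox4i1 (9.06), Cox6b1 (7.88) and mt-Co1 (72.4), and the complex IV sum of nuclear members was 67.5 against 20.1 to 48.7 in the other classes.

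In the ATP synthase, the catalytic beta subunit Atp5b had 4.14 in endothelial-like cells and 2.84 in all other cells, and the alpha subunit Atp5a1 2.58 and 2.14. With the shift of 0.26 Atp5b (log2 ratio 0.53) stays higher and Atp5a1 (0.26) is about level. Atp5e, the epsilon subunit of the central stalk, was lower, at 2.64 in endothelial-like cells (2.62 in library 1 and 2.69 in library 2) against 4.05 in plasma-cell-like to 10.2 in B-cell-like cells. No other class came near the endothelial interval (2.47 to 2.81), and the log2 ratio to all other cells was -1.32 (-1.42 to -1.22). Thinned to 2500 UMIs, 44.1% of endothelial-like cells and 62.2 to 90.5% of cells in other classes would show an Atp5e UMI.

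Atp5g2, 1 of 3 genes for the membrane c subunit, was lower too (2.61 against 4.08), and B-cell-like cells were highest at 7.89. The other c-subunit genes Atp5g1 and Atp5g3 had 1.76 and 1.65 in endothelial-like cells and were highest in other classes, Atp5g1 at 3.23 in plasma-cell-like and Atp5g3 at 3.08 in alveolar-macrophage-like cells. For Atp5g1 the intervals of plasma-cell-like, alveolar-macrophage-like and B-cell-like cells overlap, whereas for Atp5g2 no class reached the interval of B-cell-like cells (7.199 to 8.63). B-cell-like cells had 10 members higher (12.3% of all genes) and 9 lower (33.1%), and 6 of the 10 were mitochondrial.

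Longer nuclear members tended to have higher endothelial log2 ratios, with wide overlap in length between higher and lower members. Over 78 nuclear members with an annotated coding sequence, the Spearman correlation of the endothelial log2 ratio with coding length was 0.40 (0.35 in library 1 and 0.23 in library 2), and over 12120 genes it was 0.08. With transcript length it was 0.33 (0.31 in library 1 and 0.19 in library 2), and 0.10 over the 12120 genes. The genes share libraries and totals, so this is a description. The 11 members higher on the total of all UMIs had a median coding length of 744 bases (246 to 2181). The 8 lower ones had 289.5 (156 to 516) and all 78 had 417. The part of transcript length in the differences was not tested.

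**Figure D2:**
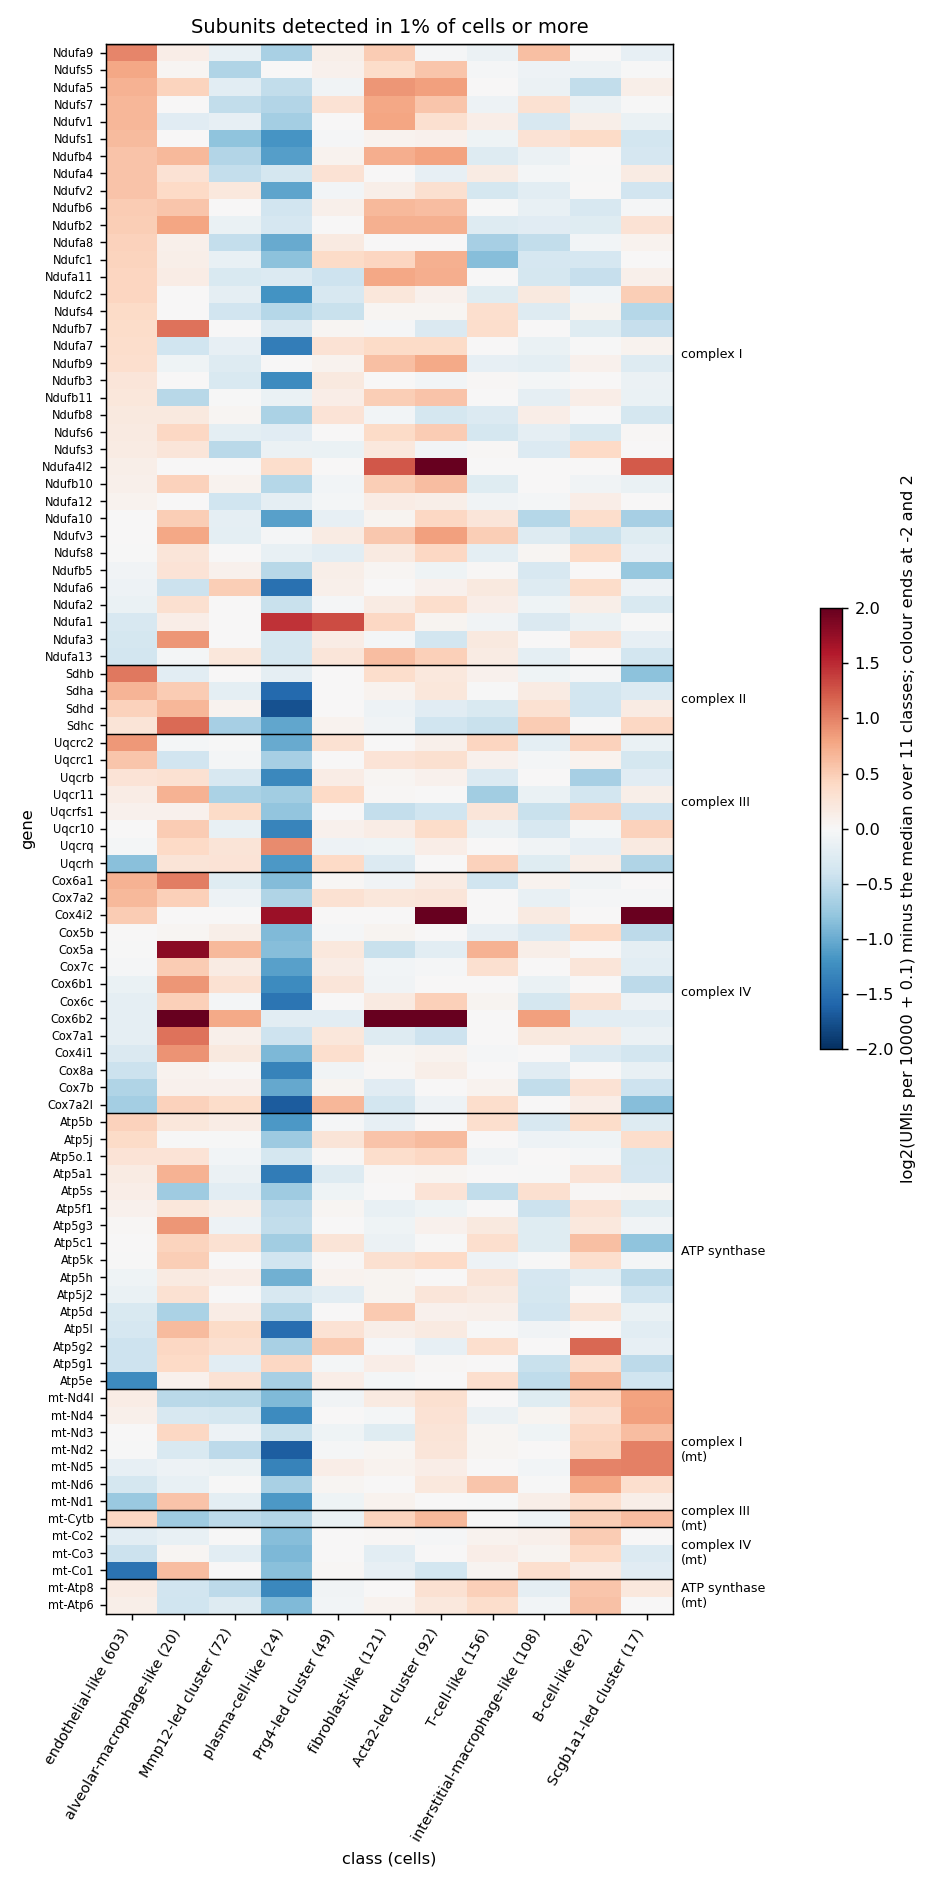
Heat map of the members detected in at least 1% of cells (rows, 1 of the 92 not shown) in the 11 classes (columns), as log2 of the rate plus 0.1 per 10000, minus the gene's median over classes, with colours ending at 2 in either direction. The plasma-cell-like column is low for most members, the alveolar-macrophage-like column holds Cox5a at 8.06 per 10000, and Cox6b2 stands out in fibroblast-like cells at 1.64.

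**Figure D3:**
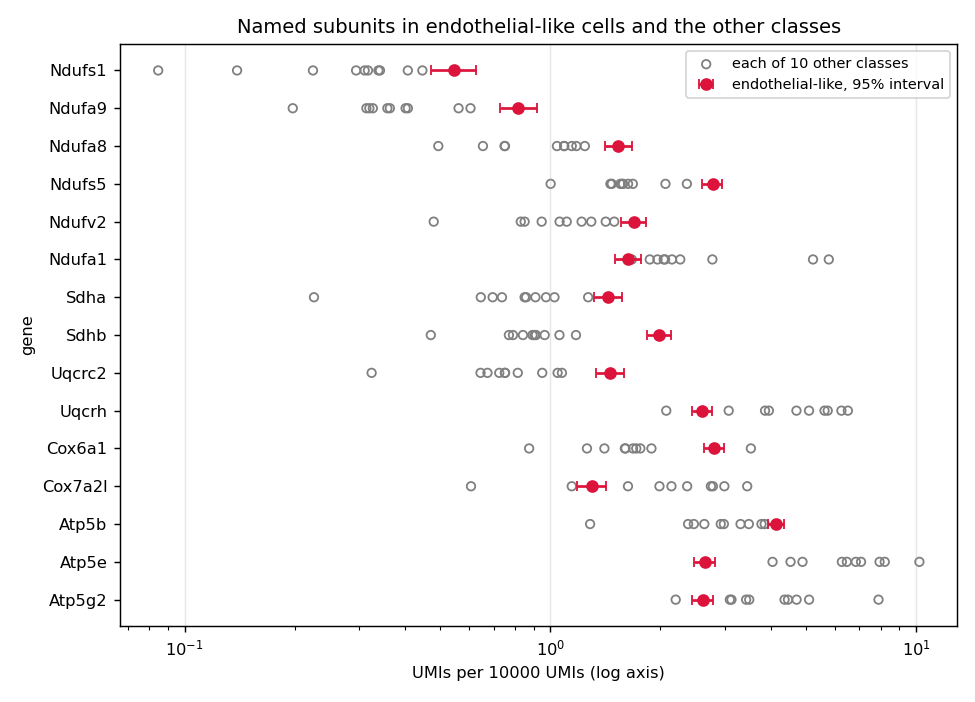
Rates of 15 nuclear members on a log axis, in UMIs per 10000 UMIs, with endothelial-like cells as red points with 95% counting intervals and the 10 other classes as open circles. Sdhb at 1.98 lies to the right of every circle and Atp5e at 2.64 to the left of every circle.

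Among the mitochondrial genes, which are cut from shared precursor transcripts, the largest difference was in mt-Co1, the catalytic subunit of complex IV. Its rate was 17.0 in endothelial-like cells (16.6 to 17.4), with 15.9 in library 1 and 19.6 in library 2, and the other classes ran from 26.5 in plasma-cell-like to 72.4 in alveolar-macrophage-like cells. The log2 ratio to all other cells was -1.43 (-1.47 to -1.39). mt-Nd1, a core membrane subunit of complex I, was the other one past 1.5-fold, at 5.60 (5.61 and 5.56 in the libraries) against 9.24 in all other cells. mt-Cytb, the cytochrome b of complex III, was at 37.8 against 30.6, and mt-Atp6, the proton channel subunit of the ATP synthase, at 74.4 against 69.3. With the shift of 0.26 the log2 ratio of mt-Cytb (0.30) stays above 0 and that of mt-Atp6 (0.10) does not.

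Of the remaining mitochondrial genes, mt-Nd6, encoded on the opposite strand and scarce, had a ratio as low as that of mt-Nd1 but did not reach 1.5-fold with 0.1 added. It stood at 0.143 against 0.244 (51 and 151 UMIs, log2 ratio -0.77, -1.26 to -0.30). The others lay closer together. mt-Co2 and mt-Co3, which complete the core of complex IV, were at 41.1 against 47.5 and 35.5 against 45.3. The complex I genes mt-Nd2, mt-Nd3, mt-Nd4, mt-Nd4l and mt-Nd5 were at 14.7, 3.16, 21.9, 5.95 and 3.16 in endothelial-like cells and 15.04, 3.26, 20.4, 5.42 and 3.94 in all other cells. mt-Atp8 was at 6.28 against 5.54. Since mt-Atp8 overlaps mt-Atp6, mt-Atp6 overlaps mt-Co3 and mt-Nd4l overlaps mt-Nd4 on the same strand, reads at these borders can fall to either gene.

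As a share of all mitochondrial UMIs, neither the total nor any filter on mitochondrial share, if one was applied, enters directly. On this measure mt-Co1 took 6.37% in endothelial-like cells (6.20% in library 1 and 6.70% in library 2) and 15.2% in all other cells (15.1% and 16.5%). mt-Co1 UMIs per mt-Cytb UMI were 0.450 in endothelial-like cells (0.436 to 0.464), with 0.441 and 0.467 in the libraries. The other classes rose from 0.826 in the Acta2-led cluster through 0.931 in the Scgb1a1-led cluster, 1.10 in fibroblast-like, 1.34 in B-cell-like, 1.42 in plasma-cell-like, 1.73 in T-cell-like, 1.88 in Prg4-led, 2.27 in interstitial-macrophage-like and 2.42 in Mmp12-led cells to 4.22 in alveolar-macrophage-like cells (3.77 to 4.73). Endothelial-like cells were the lowest of the 11 classes over both libraries, and in library 2, where no other class had 20 cells, they stood at 0.467 against 1.75 in all other cells together. Neighbours such as B-cell-like and plasma-cell-like cells have intervals that overlap (1.27 to 1.41 and 1.32 to 1.52), and the top of the order was held by both macrophage-like classes and the Mmp12-led cluster.

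**Figure D4:**
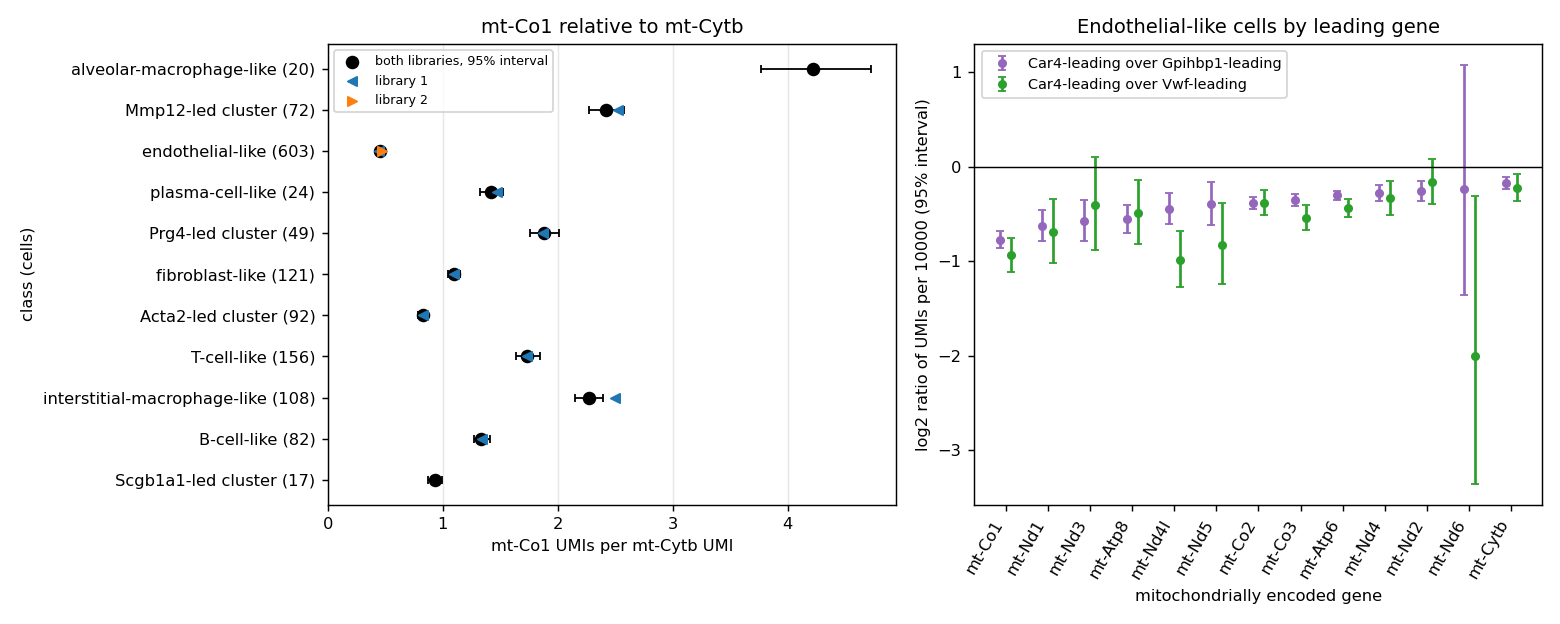
Left, mt-Co1 UMIs per mt-Cytb UMI in each class, with 95% counting intervals and each library as triangles. Right, log2 ratios of the 13 mitochondrial genes for Car4-leading over Gpihbp1-leading cells (purple) and over Vwf-leading cells (green). Endothelial-like cells lie at 0.450 and alveolar-macrophage-like cells at 4.22 on the left, and all ratios on the right are below 0, with intervals that reach above 0 for mt-Nd6 (purple) and for mt-Nd2 and mt-Nd3 (green).

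Endothelial-like cells were then divided by which of Car4, Gpihbp1 and Vwf had most UMIs in a cell. Car4 marks aerocytes, the alveolar capillary cells of gas exchange, Gpihbp1 general capillary cells and Vwf larger vessels. Car4 led in 508 cells (median 16 Car4 UMIs), Gpihbp1 in 72 (median 12) and Vwf in 17 (median 10), and 6 cells had no lead. These are ranges of per-cell counts rather than separate types. Library 2 held 144, 7 and 2 of the 3 groups, so only Car4-leading cells can be followed in both libraries.

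Mitochondrial members were lower in Car4-leading cells. Their sum was 254 per 10000 UMIs (252 to 255) against 324 in Gpihbp1-leading (319 to 329) and 348 in Vwf-leading cells (336 to 360). Within Car4-leading cells it was 234 in library 1 and 289 in library 2, a gap of the same order as that between subtypes, and within library 1 Gpihbp1-leading cells had 324. The nuclear sums were 170, 181 and 192, and nuclear UMIs per mitochondrial UMI were 0.669 (0.713 and 0.603 in libraries 1 and 2), 0.559 and 0.551. Within library 1 this ratio was 0.713 against 0.561 in Gpihbp1-leading cells, whereas the 144 Car4-leading cells of library 2 (0.603) came closer to the latter.

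Against Gpihbp1-leading cells 0 of 92 members were higher in Car4-leading cells (8.94% of all genes) and 3 were lower (9.85%). The 3 were mt-Co1, at 14.9 against 25.5 (log2 ratio -0.77, -0.86 to -0.68), mt-Nd1, at 5.07 against 7.81, and Cox4i2, which rests on 8 and 6 UMIs. All 13 mitochondrial members had a ratio below 0 (median -0.38), and 32 of 79 nuclear members had one above 0 (median -0.10), beside a median of 0.00 over all genes. mt-Cytb, at 37.0 against 41.7, and mt-Atp6, at 71.1 against 87.9, had smaller gaps than mt-Co1. mt-Co1 UMIs per mt-Cytb UMI were 0.404 in Car4-leading (0.371 and 0.455 in the libraries), 0.612 in Gpihbp1-leading and 0.663 in Vwf-leading cells, all of them below every class outside the endothelium.

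Against Vwf-leading cells 5 members were higher in Car4-leading cells (21.4% of all genes) and 11 lower (18.8%), and 5 of the 11 were mitochondrial. mt-Co1 was at 14.9 against 28.6 and mt-Nd4l at 5.52 against 10.9. The 5 higher members were Sdhc, Ndufa10, Ndufb6, Atp5b and Sdhd, of which the first and the second rest on 1 and 3 UMIs in Vwf-leading cells. Only for Sdhc and Atp5b did the interval of the log2 ratio lie above 0 (0.03 to 7.84 and 0.09 to 1.27). Between Gpihbp1-leading and Vwf-leading cells 6 members were higher in the former (19.5% of all genes) and 4 lower (14.9%). These comparisons share cells and are given side by side only. Complex II, the complex with the largest endothelial gap, was at 4.99 per 10000 in Car4-leading (4.5 and 5.91 in the libraries), 4.26 in Gpihbp1-leading and 3.57 in Vwf-leading cells (2.47 to 4.99), each above the 2.67 of other cells, with an interval in Vwf-leading cells that comes down to 2.47.

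Of the tissue-restricted isoforms, Cox6b2, Cox4i2 and Ndufa4l2 were scarce in endothelial-like cells and highest in fibroblast-like cells or the Acta2-led cluster. Cox6b2, known as the testis form of subunit VIb, had 155 UMIs in fibroblast-like cells, a rate of 1.64 (1.39 to 1.92), and was detected in 63 of 121 cells (52.1%, median depth 7533 UMIs). In endothelial-like cells it had 1 UMI in 603 cells (0.166%, median depth 5239), a ratio to all other cells of 0.00792 with a log2 interval of -12.29 to -4.49. The Acta2-led cluster had 0.651, alveolar-macrophage-like cells 0.362 on 8 UMIs, and B-cell-like, Prg4-led, plasma-cell-like and Scgb1a1-led cells had 0 UMIs, where a count of 0 allows rates up to 0.0423 to 0.0673. The ubiquitous Cox6b1 was at 3.85 in endothelial-like cells, close to the 4.09 of all other cells.

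Cox6b2 was uneven within these classes. At a finer resolution the fibroblast-like cells fell into 25 cells led by Limch1 with a Cox6b2 rate of 2.93 (2.25 to 3.74), 66 led by Apod with 1.75 (1.39 to 2.17) and 30 led by Igfbp5 with 0.350 (0.160 to 0.664). The Acta2-led cluster fell into 64 cells led by Smoc2 with 0.912 (0.642 to 1.26) and 28 led by Acta2, Tagln and Myh11 with 0.144 on 3 UMIs. The Cox6b2 intervals of the Limch1-led and Igfbp5-led cells do not meet, and fibroblast-like cells were thus unequal in this gene. Acta2, which names the Acta2-led cluster, had a rate of 101 in its 28 cells led by Acta2, Tagln and Myh11. In the 64 Smoc2-led cells Acta2 was at 0.912, beside 0.619 in the Apod-led fibroblast-like cells, so the name describes the smaller part of the cluster.

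Cox4i2, which replaces Cox4i1 in complex IV of some cells, was highest in the Acta2-led cluster, with 44 UMIs and a rate of 0.717. These UMIs came from 4 of 92 cells, 26 from the 1 cell of library 2 and 16 from 1 cell of library 1, and without the first of these cells the rate was 0.296. All 4 cells were among the 28 led by Acta2, Tagln and Myh11 (rate 2.11), and the 64 Smoc2-led cells had 0. Of 7 pericyte markers 6 had higher rates in those 28 cells than in the Smoc2-led ones, among them Cspg4 at 1.2, Notch3 at 0.816 and Higd1b at 0.672 (in 3 cells), and Kcnj8 had 0.384 against 0.444. The smooth-muscle genes Myh11, Des, Cnn1 and Actg2 were at 14.4, 13.2, 4.13 and 3.55 in the 28 cells and at 0 in the Smoc2-led ones. The part of either cell type in the Cox4i2 UMIs was not tested. In plasma-cell-like cells 13 of 16 Cox4i2 UMIs and in the Scgb1a1-led cluster all 13 came from 1 cell, and endothelial-like cells had 15 UMIs in 10 of 603 cells.

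Ndufa4l2, the inducible relative of Ndufa4, was also highest in the Acta2-led cluster, with 32 UMIs in 9 cells (rate 0.521, and 0.345 without the top cell). Unlike Cox4i2 it had UMIs in the fibroblast-like cells led by Apod (10), Igfbp5 (2) and Limch1 (1). Of these UMIs 25 were in the 28 cells led by Acta2, Tagln and Myh11 (1.2) and 7 in the 64 Smoc2-led cells (0.173). Ndufa4 itself was at 6.14 in endothelial-like and 4.01 in all other cells. Cox7a1, the muscle form of subunit VIIa, stayed near the limit of detection, with at most 4 UMIs in any class other than the 6 of endothelial-like cells. Its highest rate, 0.181, rests on 4 UMIs in alveolar-macrophage-like cells, and the Acta2-led cluster had 0.

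By Pearson correlation of log2(rate + 0.1) over the 11 classes, the genes most like Cox4i2 included Fam162b (0.94), Kyat3 (0.89), Arfgef3 (0.86) and Notch3 (0.86). Those most like Ndufa4l2 were Alpl and 2810433D01Rik (0.99 each), followed by Tecrl, Rcan2 and Chn1 (0.98 each). For Cox7a1 they included Plekhb2 (0.95) and Pnpla7, Tmem268 and Nipa2 (0.94 each). The values are descriptions over 11 points that share libraries and totals, and for these 3 genes a few cells set most points.

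**Figure D5:**
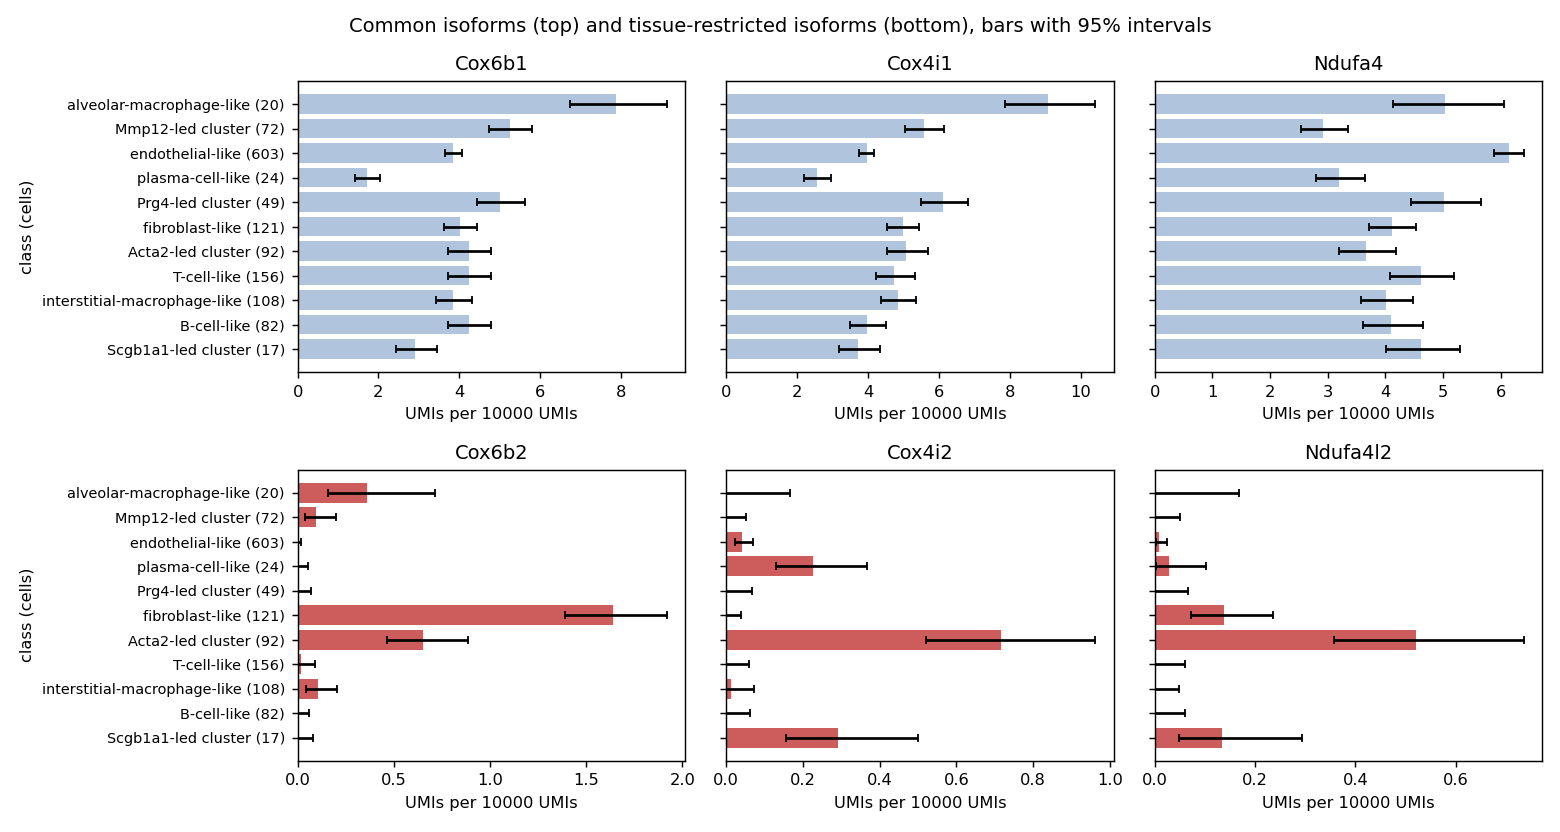
Rates of 3 pairs of common and restricted isoforms in the 11 classes, in UMIs per 10000 UMIs, as bars from 0 with 95% counting intervals. Cox6b2 reaches 1.64 in fibroblast-like cells, and Cox4i2 and Ndufa4l2 reach 0.717 and 0.521 in the Acta2-led cluster.

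Other genes of the pathway were counted in the same endothelial contrast, against the 28.3% of all genes that were higher and 18.1% that were lower. Among assembly factors 12 of 45 were higher and 0 lower by 1.5-fold or more (median log2 ratio 0.34). Atpaf1, a chaperone for the ATP synthase, had 0.362 in endothelial-like and 0.0907 in all other cells, Ndufaf3, needed for complex I, 0.654 and 0.277, and Tmem70 0.483 and 0.225. The lowest were Coa5 (0.185 against 0.327), Cox20 (0.447 against 0.698) and the inhibitor of the ATP synthase Atpif1 (1.80 against 2.69). Among enzymes of the tricarboxylic acid cycle and pyruvate dehydrogenase 4 of 16 were higher and 0 lower (0.36), led by Dlat (0.407 against 0.165), Dld (0.604 against 0.327) and Idh3a (0.525 against 0.296), while Pdha1 was at 0.410 against 0.549. These shares were close to or below the background for higher genes.

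Glycolysis genes were split, with 6 of 17 higher and 6 lower (median -0.05). The hexokinase Hk1 had 0.649 in endothelial-like and 0.228 in all other cells, the aldolase Aldoa 6.42 and 3.15 and the phosphofructokinase Pfkp 1.03 and 0.547. The second hexokinase Hk2 and the lactate dehydrogenase Ldhb each had 1 UMI in endothelial-like cells (0.00281) and 0.845 and 0.591 in all other cells, and the lactate exporter Slc16a3 had 0.0112 and 0.136. Of the regulators of mitochondrial genes 1 of 14 was higher, the mitochondrial DNA polymerase Polg (0.435 against 0.172), and Tfb2m and Tfam, factors of mitochondrial transcription, were at 0.205 against 0.107 and 0.289 against 0.197. Genes of the mitochondrial ribosome had 16 of 77 higher and 3 lower (0.31), with Mrpl3 (0.767 against 0.324), Mrpl44 (0.379 against 0.138) and Mrpl4 (0.983 against 0.466) at one end and Mrps6 (0.166 against 0.665), Mrpl52 (0.924 against 2.40) and Mrpl23 (0.539 against 1.08) at the other.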

How the data were processed

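Cells were sorted from lung and profiled with 10x Chromium 3' v3 chemistry, and Cell Ranger 3.0.2 with mm10 is named in the submitters' processing notes. The deposited table holds natural log values, ln(1 + UMIs per 10000 UMIs of the cell), in 15526 genes and 1344 cells, and the sources used here do not give the authors' further filters. Whole UMIs were recovered from these values (largest deviation from a whole number 1.78e-10) and summed over cells of a class.

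Cells were clustered in scanpy 1.11.5 (2000 variable genes without the members and pathway lists, 20 components, 15 neighbours, Leiden resolution 0.5), giving 13 clusters in 11 classes named from lineage markers. Rates carry exact Poisson, ratios exact conditional binomial and shares exact Clopper-Pearson 95% intervals, which cover counting error only. Thinned shares are expected values at 2500 UMIs. Fold changes have 0.1 per 10000 added, for 12702 genes detected in at least 1% of cells. Ratio intervals were tried only on sums simulated from the Poisson model that they assume, with 200 changed genes. That simulation left out spread between cells, so it does not bear on UMIs that gather in few cells. Members and lists were chosen with earlier results of these data known. The genes named were all mitochondrial members, isoform pairs, a core list and the largest 8 differences in each direction of each endothelial contrast; members singled out in other classes, and Ndufv2, were chosen after their values were seen. Positions are from GENCODE M21. A few genes that these rules name are not reported here. Alternatives were each library, other totals, other clusterings, other subtype rules, thresholds and added constants.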

Additional observations from a re-analysis of the deposited data

How the results depend on the processing

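No paired analysis was possible because the libraries named in the cell names cannot be tied to the replicate numbers of the samples and no result comes from a test, and contrasts within each library are given as values. Low counts limit the Vwf-leading group (17 cells) and the restricted isoforms. Library 2 alone was not run for subtype contrasts, since fewer than 20 cells were on a side. Values that follow are log2 ratios or counts of members.

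The nuclear sum in endothelial-like cells (0.05) reversed with the mean over cells (-0.043), on the total without the 20 genes (-0.21) and without plasma-cell-like cells (-0.021), and was 0.023 in library 1 and 0.27 in library 2. The mitochondrial sum (-0.18) was -0.23 and -0.12 in the libraries, -0.29 as a mean over cells, -0.44 without the 20 genes, -0.26 without plasma-cell-like cells and -0.11 without cells over 4.5%. Their ratio (0.23) was 0.25 and 0.40 in the libraries, 0.20 as a mean and 0.15 without cells over 4.5%. The count of members past 1.5-fold (21) was 5 with 1 per 10000 added and 4 at 2-fold, while the share of all genes past the threshold went from 46.4% to 13% and 25.5%, and mt-Co1 per mt-Cytb (-1.73) was -1.91 in library 2.

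For Car4-leading against Gpihbp1-leading cells the nuclear sum (-0.09) was -0.13 as a mean, the mitochondrial sum (-0.35) -0.47 in library 1, -0.39 as a mean and -0.29 with subtypes by cluster, and their ratio (0.26) 0.35, 0.30 and 0.18. The count (3) was 5 with a lead of 3 UMIs, 5 with 0.01 added, 1 with 1 added and 0 at 2-fold, and mt-Co1 per mt-Cytb (-0.60) was -0.73 in library 1 and -0.47 by cluster. Against Vwf-leading cells the nuclear sum (-0.18) was -0.078 by cluster, the mitochondrial sum (-0.46) -0.40 as a mean and -0.55 with a lead of 3, the ratio (0.28) 0.37 without cells of several lineages and 0.41 by cluster, and the count (16) 8 by cluster, 25 with a lead of 3, 5 with 1 added and 3 at 2-fold. For Gpihbp1-leading against Vwf-leading cells the nuclear sum (-0.08) reversed by cluster (0.032), as did Ndufa10 (-0.53), Ndufb5 (-0.068), Ndufs7 (0.076) and Sdhc (-0.13). There the mitochondrial sum (-0.10) was -0.0029 as a mean, -0.20 by cluster and -0.21 with a lead of 3, the ratio (0.02) 0.11 without cells of several lineages, 0.23 by cluster and 0.11 with a lead of 3, and the count (10) 1 by cluster, 2 with 1 added and 4 at 2-fold.

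In the endothelial contrast assembly factors past 1.5-fold (12) were 20 in library 2, tricarboxylic acid cycle enzymes (4) were 2 in library 1, regulators (1) were 3 in library 2 and mitochondrial ribosome genes (19) were 37 in library 2. Of all genes 45.7% were past 1.5-fold in library 1 and 52.0% in library 2, which held 45 other cells. With Ndufa4 counted with complex IV the log2 ratio of that sum went from -0.08 to -0.0020 and that of complex I from 0.25 to 0.21. Cox4i2 in the Acta2-led cluster (3.86) was 2.59 without its top cell and 2.45 in library 1. The cause of these changes was not tested. The other 87 values of main results and 276 of 319 values of single genes stayed within the counting interval or, for counts, within 1.5 times. In library 2 alone 9 single-gene values moved and 7 stayed, and on the total without the 20 genes 14 moved and 50 stayed. With subtypes by cluster 10 moved, 4 reversed and 34 stayed. The other clusterings gave 16 unmoved values each, with 603 to 606 endothelial-like cells. Counts were judged on both directions together, so an exchange between higher and lower members did not register. The settings without plasma-cell-like cells, without cells over 4.5% and without the top cell, the counting of Ndufa4 with complex IV, the values of the pathway lists in each library, and the alternatives for mt-Co1 per mt-Cytb, were chosen after seeing the data.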

Other observations

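Car4-leading cells were also divided by whether a cell had a UMI of Cdkn2a, the gene of p16. Cells with one numbered 307 (median 5660 UMIs) and cells without 201 (median 4672). The nuclear members summed to 169.4 per 10000 UMIs with a Cdkn2a UMI and 170.3 without, and the mitochondrial members to 258 and 245. Within library 1 the mitochondrial sums were 232 and 237 and within library 2 they were 289 and 290.1, so the pooled gap was not present within either library. The nuclear sums were 165.5 and 169.0 in library 1 and 174 and 178 in library 2. A Cdkn2a UMI is found more easily in a deeper cell, and library 2 held 118 of the cells with one and 26 of those without.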
